A study of Mus musculus with 12 samples.

Results

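Whole mouse GV oocytes whose cDNA was amplified for 18 cycles were compared with whole GV oocytes amplified for 10 or 14 cycles. Members were chosen by their sample titles, 2 libraries at 18 cycles against 4 libraries at 10 and 14 cycles pooled as one reference, which takes in 6 of the 12 samples of the series. GV oocytes are fully grown oocytes held in prophase of the first meiotic division with an intact nucleus, the germinal vesicle. Each library holds the poly(A) RNA of 1 oocyte kept in M2 medium, to which the study's methods add the phosphodiesterase inhibitor milrinone during collection, and lysed singly, with ERCC spike-in RNA added to the lysate. All 3 groups share strain, sex and age (oocytes of a B6D2F1 female aged 12 weeks, from the study's methods), the labels name no modified allele, and the groups differ by label in the number of amplification cycles. No label ties an oocyte to an animal, and replicates are different oocytes.

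The study describes populations of fully grown oocytes that differ in transcriptional activity, and no label here names one. Transcription ends at this stage, and the oocyte then lives on a store of maternal mRNA. That store encodes the egg coat, the growth factors sent to the follicle, the maternal-effect proteins under the cortex and the machinery of meiosis, and much of it is kept dormant until meiosis resumes or the embryo forms. Transcripts in it range from AT-rich to GC-rich, and the share of G and C bases in the transcript is set beside each gene group below.

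Messages that mark the oocyte took a smaller share at 18 cycles, and the gene lists of mitochondrial ribosomes, the respiratory chain, histones and the anaphase-promoting complex held more higher than lower genes. Gdf9, Bmp15, Padi6, Nlrp14 and the zona gene Zp2 were lower in both libraries at 18 cycles than in all 4 reference libraries, while Khdc3, Zar1 and Cox4i1 were higher. Of 17532 genes tested, 2810 (16%) were higher and 2530 (14.4%) lower at an adjusted p under 0.01 in edgeR's quasi-likelihood test, 30.5% in either direction. The change was at least 2-fold for 2363 of the higher and 2294 of the lower genes, and at least 4-fold for 774 and 896. Genes called higher had a median transcript GC content of 53.3%, those called lower 45.8% and those not called 48.8%, against 49% over all genes tested. The values of the 2 groups did not overlap for 61.5% of the genes tested, called or not, so groups that do not overlap are common in this comparison. Below, a and b after a cycle number stand for its replicates 1 and 2, higher and lower mean called by this test, normalized counts are counts divided by the library's median-ratio size factor, and a log2 fold change sets 18 cycles over the reference and is given ± an approximate standard error. This error is the size of the log2 fold change divided by the square root of the test's F statistic. Members named for a list with 5 or fewer calls in a direction were chosen after their values were seen. Other members named are mainly the called ones of each list with the largest change in each direction, and the one with the highest count. The former needed a mean of at least 50 normalized counts. Named members were thus chosen by their values and do not stand for their list.

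The libraries differed in more than cycle number. Genes received 11597144 and 9189672 counts (10 cycles), 12349577 and 13806199 (14) or 3017069 and 1706478 (18 cycles), so both libraries at 18 cycles were shallower than every reference library. The oocyte, its preparation and the cycle number cannot be told apart here, and lower depth coincides with 18 cycles. At least 1 count was found on 17017 and 14918 genes at 18 cycles and on 21146 to 23022 in the reference, and with every library drawn down to 1706478 counts on 15789 and 14918 against 16963 to 17747. ERCC molecules held 0.0534% and 0.0863% of counts at 18 cycles and 0.277% to 0.308% in the reference (p = 0.133 by an exact two-sided permutation test, the least that 2 against 4 libraries allow). The 100 genes with the most counts held 18.1% and 19.5% at 18 cycles and 17.2% to 19.1% in the reference, which overlap (exact p = 0.533). Of reads on genes, ERCC molecules or neither, those that fit more than 1 gene made up 4.10% and 3.89% at 18 cycles against 2.64% to 2.98%, and reads in no gene 7.07% and 10.06% against 10.4% to 10.8% (exact p = 0.133 for each). With all libraries drawn down to 1706478 counts, 2718 of 13060 genes were higher and 2190 lower, and 4686 of the calls were kept. The part of the other measures in the gene results was not tested. All changes below are relative to the median gene: with size factors from ERCC molecules the median log2 fold change shifts up by 2.26, which turns the split into 9447 higher and 4 lower (Antxr1, Daw1, Gm5581 and Gm11587, named after their values were seen). Without replicate 1 at 18 cycles 1409 genes were lower in place of 2530. Of the genes tested 1506 had 0 counts in both libraries at 18 cycles, so the median log2 fold change over all genes, -0.31, becomes 0.00 when such genes are set at the bound of 3 counts in each library.

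The 8 largest rises among protein-coding genes with a mean of at least 50 normalized counts over the 6 libraries, whose exons overlap no other gene, were led by Espn, which encodes espin, an actin-bundling protein of microvilli and stereocilia. Espn had normalized counts of 5.29 and 6.35 (10 cycles), 6.55 and 4.86 (14) and 154 and 170.1 (18). Socs1, a suppressor of cytokine signalling, had normalized counts of 78.2 and 61.3 (10 cycles), 114 and 95.4 (14) and 1366 and 1701 (18). Both genes stood higher in each library at 18 cycles than in every reference library, by log2 fold changes of 4.80 ± 0.35 and 4.12 ± 0.23 (edgeR adjusted p = 2.28e-06 and 7.39e-07). Lbx1, a homeobox gene of muscle precursors and spinal cord neurons, had normalized counts of 119.995 and 47.2 (10 cycles), 116 and 68.02 (14) and 799 and 2297 (18). Nrtn, which encodes the neurotrophic ligand neurturin, had normalized counts of 18.5 and 40.2 (10 cycles), 24.7 and 19.9 (14) and 305 and 506 (18). Their groups did not overlap either, although the 2 libraries at 18 cycles lay far apart for Lbx1, and the log2 fold changes were 4.11 ± 0.40 and 3.97 ± 0.33 (edgeR adjusted p = 1.24e-05 and 4.82e-06). After correction for transcript GC Nrtn had 0.86 and was no longer called (edgeR adjusted p = 0.0505). The other 4 were Sft2d3, a vesicle transport gene, Mocs3, an enzyme of molybdenum cofactor synthesis, Ptms, which encodes parathymosin, and Tmem158, a gene induced by Ras. They rose by 3.97, 3.95, 3.75 and 3.72. Transcript GC content was 49.9% for Sft2d3 and between 58.8% and 72.8% for the other 7. Espn, Mocs3, Ptms, Sft2d3 and Nrtn pass that mean through the libraries at 18 cycles alone, so the set favours genes high there.

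The 8 largest falls chosen in the same way rest on few counts at 18 cycles. Mei4, which is needed for the DNA breaks of meiotic recombination, had normalized counts of 81.4 and 93.1 (10 cycles), 99.2 and 89.2 (14) and 2.36 and 9.45 (18). Tcstv3, a gene of the 2-cell stage embryo with near-identical copies, had normalized counts of 109.95 and 139 (10 cycles), 109 and 96.3 (14) and 7.09 and 4.73 (18). Daw1, an assembly factor of ciliary dynein, had normalized counts of 155 and 119 (10 cycles), 201 and 289 (14) and 2.36 and 18.9 (18). In all 3 every reference library lay above both libraries at 18 cycles, with 3, 4 and 5 counts in the 2 libraries at 18 cycles together, and the edgeR adjusted p was 8.63e-05, 3.87e-05 and 2.14e-04. For genes with 1 to 3 counts the ratio of reference to 18 cycles is given with its 95% counting interval, which covers counting error only, since reads without molecular identifiers are not independent molecules. The ratio was 19.2 [6.53 to 93.2] for Mei4, 26.7 [7.36 to 221] for Gm16427 on 2 counts, 22.6 [7.6998 to 109.7] for Nhs, the gene of Nance-Horan syndrome, 19.6 [6.67 to 95.1] for Rgsl1 and 18.6 [6.33 to 90.3] for Gm5141. The fitted log2 fold changes were -4.16 for Tcstv3, -4.54 for Daw1 and -3.97 for the zinc finger gene Zfp931 on 6 counts. The reference libraries themselves ranged from 20.8 to 184 normalized counts for Nhs. Gm16427, Gm5141 and Zfp931 also belong to families with similar copies, so their counts are uncertain. The transcript GC content of these 8 genes lay between 33.2% and 48.7%, below that of all genes tested. All 8 pass the mean of at least 50 normalized counts through the reference libraries alone, so the set favours genes high there. With 1 library left out, the edgeR adjusted p rose to 0.0104 to 0.116 and the call was lost for Nhs (10a, 10b, 18a, 18b) and Daw1 (18a).

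The first coding bases of the first gene in each of these rankings are shown because the rise starts in GC-rich coding sequence, although the intervals of the falls overlap and leave their order open. Espn (ENSMUSG00000028943) lies at chr4:152120331-152152371 on the minus strand and Gm16427 (ENSMUSG00000096044) at chr5:93481829-93540200 on the minus strand, both in GRCm38, and capitals mark the start codon.
Espn: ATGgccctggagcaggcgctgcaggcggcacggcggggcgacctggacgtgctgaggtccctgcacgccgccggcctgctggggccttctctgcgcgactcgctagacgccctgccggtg
Gm16427: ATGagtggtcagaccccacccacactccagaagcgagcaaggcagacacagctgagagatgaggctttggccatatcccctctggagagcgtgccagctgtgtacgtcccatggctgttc
These 120 bases hold 75% G and C in Espn and 58.3% in Gm16427, and CG dinucleotides occur 14 and 3 times.

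Among called genes with the highest counts, 4 rises and 4 falls stood out, and 6 of these 8 are known for roles in the oocyte. Gdf9, the growth factor through which the oocyte directs the surrounding granulosa cells, had normalized counts of 32794 and 32770.3 (10 cycles), 34295 and 35819.5 (14) and 11455 and 12731 (18). Bmp15, its X-linked partner, had normalized counts of 26183 and 24004 (10 cycles), 26178 and 24918 (14) and 5808 and 6871 (18). Padi6, a maternal-effect protein of the cytoplasmic lattices, had normalized counts of 42113 and 32538 (10 cycles), 36522 and 34816 (14) and 10306 and 8194 (18). In all 3 genes both libraries at 18 cycles lay far below the reference, and the log2 fold changes were -1.49 ± 0.16, -1.999 ± 0.17 and -1.98 ± 0.19 (edgeR adjusted p = 1.94e-05, 4.70e-06 and 9.27e-06). Nlrp14, an NLRP protein of the egg, had normalized counts of 31154 and 29767 (10 cycles), 27976 and 29849.8 (14) and 7288 and 6663 (18), a log2 fold change of -2.09 ± 0.16 with no overlap between groups (edgeR adjusted p = 2.96e-06).

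The rises among the genes with the highest counts include members of the same maternal complex as Padi6. Zbed3, a zinc finger protein of the subcortical maternal complex, had normalized counts of 39968 and 26410.1 (10 cycles), 34649 and 33043 (14) and 47344 and 98114 (18). Khdc3, also called Filia, which keeps early cleavage divisions euploid, had normalized counts of 15667 and 17763 (10 cycles), 18327 and 20811 (14) and 108185 and 67558 (18). Uchl1, a ubiquitin hydrolase abundant in oocytes and neurons, had normalized counts of 13711 and 17611 (10 cycles), 13082 and 15257 (14) and 43212 and 24885 (18). The libraries at 18 cycles lay above the reference for each, and for Zbed3 and Uchl1 the 2 libraries at 18 cycles differed from each other more than the groups did at their nearest. The log2 fold changes were 1.12 ± 0.25, 2.28 ± 0.19 and 1.19 ± 0.21 (edgeR adjusted p = 0.00332, 4.80e-06 and 7.26e-04). The fourth, Gm20509 (2.25 ± 0.19), is a gene model that shares exons with Khdc3 and Rsl24d1, and Uchl1 shares exons with Uchl1os, so the counts of Khdc3, Gm20509 and Uchl1 are uncertain. Transcript GC content was 53.04%, 42.5%, 53.2% and 42.5% for the 4 falls in the order given and 53.9%, 57.9% and 56.8% for Zbed3, Khdc3 and Uchl1. The call depended on 1 library (named in brackets, edgeR adjusted p 0.0126 to 0.0491 without it) for Zbed3 (10b, 18b). The first coding bases of Zbed3 (ENSMUSG00000041995, chr13:95323612-95337841, plus strand) and Khdc3 (ENSMUSG00000092622, chr9:73101836-73104438, plus strand) in GRCm38 are shown because these rises have the highest mean counts, with the start codon in capitals.
Zbed3: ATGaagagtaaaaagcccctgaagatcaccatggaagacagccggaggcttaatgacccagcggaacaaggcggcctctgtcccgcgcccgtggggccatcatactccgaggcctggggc
Khdc3: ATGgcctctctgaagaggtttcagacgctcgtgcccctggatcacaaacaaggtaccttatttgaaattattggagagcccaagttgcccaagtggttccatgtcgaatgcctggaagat
In these stretches G and C make up 60.8% and 48.3%, and CG occurs 7 and 3 times.

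**Figure D1:**
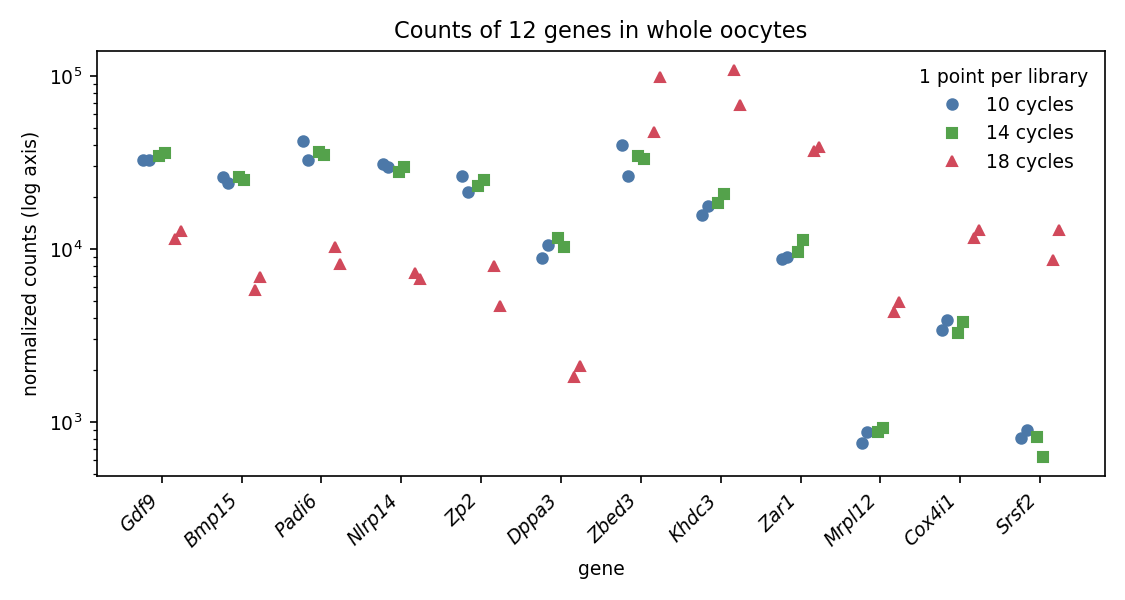
Normalized counts (log axis) of 12 oocyte, maternal-complex, mitochondrial and splicing genes in the 4 reference libraries (circles for 10 cycles, squares for 14 cycles) and the 2 libraries at 18 cycles (triangles), 1 point for each library with no error bars. The triangles of Gdf9, Bmp15, Padi6, Nlrp14, Zp2 and Dppa3 lie below all 4 reference points, and those of Zbed3, Khdc3, Zar1, Mrpl12, Cox4i1 and Srsf2 lie above them.

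The egg coat and the signals sent by the oocyte were lower as groups. All 3 zona pellucida genes fell, Zp2 with normalized counts of 26533 and 21422 (10 cycles), 22987 and 25177 (14) and 7999 and 4707 (18), Zp1 and Zp3 by log2 fold changes of -1.03 ± 0.18 and -0.83 ± 0.18. Zp2, the sperm-binding glycoprotein, changed by -1.92 ± 0.23 (edgeR adjusted p = 4.41e-05), and the median of the 3 genes was -1.03 at a median GC of 55.1%. After correction for transcript GC the median was -1.45 with all 3 lower. Of the 11 genes for oocyte signals and their receptors 9 were lower and 2 higher (median -1.49, GC 48.5%, -1.57 GC-corrected, with 1 higher and 9 lower). Oosp1, an oocyte-secreted protein, had normalized counts of 8866 and 10841 (10 cycles), 9922 and 9179 (14) and 1177 and 2424 (18), and it and its neighbour Oosp3 changed by -2.44 ± 0.27 and -2.97 ± 0.39. Cd9, the tetraspanin needed on the egg surface for fusion with sperm, fell by 2.85, and Kit, the receptor for the follicle's Kit ligand, fell by 1.21 on the log2 scale. The 2 rises were Fgf8, a growth factor that acts on cumulus cells, with normalized counts of 530.2 and 495 (10 cycles), 649.6 and 683 (14) and 2855 and 6432 (18) (2.97 ± 0.26, GC 62.8%), and the gap junction gene Gja4, whose connexin couples the oocyte to the cumulus (0.94 ± 0.15, GC 58.8%). In Fgf8 both libraries at 18 cycles lay above the reference and far apart from each other. With GC correction Gja4 changed sign, to -0.06. Exons of Oosp3 and Cd9 overlap another gene, so their counts are uncertain. Genes no longer called without the library in brackets, at an edgeR adjusted p of 0.0106 to 0.0184, were Zp3 (10a, 14a, 14b, 18b).

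The subcortical maternal complex, a protein assembly under the egg cortex that the embryo needs for its first divisions, was split. Of its 8 genes 6 were lower and 2 higher, the latter being Khdc3 and Zbed3 (median -1.46, GC 50.2%, -1.30 GC-corrected, with 1 higher and 6 lower). Nlrp5, the maternal-effect gene also called Mater, had normalized counts of 8383 and 6474 (10 cycles), 8154 and 7419.8 (14) and 3484 and 2212 (18). Ooep, which encodes an RNA-binding partner of Nlrp5, had normalized counts of 15036 and 17084 (10 cycles), 14589 and 16816 (14) and 5689.6 and 5505 (18). The reference libraries were higher throughout, with log2 fold changes of -1.41 ± 0.21 and -1.50 ± 0.16 (edgeR adjusted p = 2.48e-04 and 2.46e-05). Nlrp4f and Nlrp2, further members of the complex, changed by -2.19 ± 0.26 and -2.17 ± 0.18. The NLRP family, which outside the oocyte serves innate immunity, had 12 genes tested, of which 11 were lower and 0 higher, a median of -2.09 (-2.06 with its 1 gene without counts at 18 cycles at the bound). Its median transcript GC was 42.3%, and after GC correction the median was -1.38 with 10 genes lower. DESeq2 called 0 of them higher, and 0 had an unadjusted p under 0.05 in that direction in edgeR. Members of this family resemble each other, so reads could be split among them. Exons of Nlrp2 overlap another gene, so its counts are uncertain. Calls lost without 1 library, at an edgeR adjusted p of 0.0126 to 0.0491, were those of Zbed3 (10b, 18b).

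Transcription factors and other proteins of oocyte growth were more often lower than higher. Of 13 genes 6 were lower and 1, Lhx8, a homeobox gene of early follicle growth, was higher (median -1.17, GC 48.3%, -0.91 GC-corrected, with 2 higher and 5 lower). Nobox, the homeobox factor that drives Gdf9 and many other oocyte genes, had normalized counts of 2872 and 2789 (10 cycles), 3706 and 3420.4 (14) and 1142 and 1129 (18). Dppa3, also called Stella, which guards the maternal genome against loss of DNA methylation, had normalized counts of 8813 and 10534 (10 cycles), 11623 and 10212 (14) and 1815 and 2117 (18). Both were lower at 18 cycles without overlap (-1.49 ± 0.19 and -2.39 ± 0.19; edgeR adjusted p = 6.50e-05 and 3.44e-06). Obox5 of the Obox homeobox family and Tbpl2, the TBP paralog of the oocyte, fell (-2.80 and -2.92), and Lhx8 rose by 1.19. Figla, the basic helix-loop-helix factor of the zona genes, had normalized counts of 282 and 305 (10 cycles), 324 and 322 (14) and 546 and 241 (18) and did not pass the test (edgeR adjusted p = 0.246), and its groups overlap. Bcl2l10, a death regulator with the highest count of the list, did not pass either (-0.61 ± 0.19, edgeR adjusted p = 0.02398). Reads of Obox5 could be split with other Obox genes. With 1 library left out, the edgeR adjusted p rose to 0.0774 and the call was lost for Tbpl2 (18a).

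As a check of the label, all 14 oocyte markers had counts in every library. Their normalized counts summed to 158118 and 149137 (10 cycles), 159419 and 165578 (14) and 55875 and 52299 (18), and they made up 2.30% to 2.72% of gene counts in the reference and 0.783% and 0.649% at 18 cycles. Of the 14, 12 were lower, 0 were higher and Ddx4 and Figla did not pass (DESeq2 called 0 higher and 0 had an unadjusted p under 0.05 in that direction in edgeR), and Gdf9 had the highest count. Dazl, an RNA-binding protein of germ cells, and Mos, the kinase that holds the egg at metaphase, were among the lower ones (-1.38 ± 0.30 and -1.79 ± 0.20). Markers of granulosa and cumulus cells summed to 1358, 671, 745 and 1040 normalized counts in the reference in the same order and to 520 and 241 at 18 cycles, with Nr5a2 the highest, and Tnfaip6 at 0 in every library. Of 13 tested, 0 were higher in edgeR, in DESeq2 or at an unadjusted p under 0.05 in edgeR, and 4 lower (Nr5a2, Cyp19a1, Kitl and Grem1). Other members varied widely within the reference, as Cyp11a1 from 9.17 to 408 and Inha from 2.12 to 209 normalized counts. Amh and Foxl2 alone had positive log2 fold changes (0.71 and 2.23) and did not pass. Markers of stroma and theca summed to 23.97 to 136 normalized counts in the reference and 40.2 and 4.73 at 18 cycles, with Vim the highest and Col1a1, Col1a2, Col3a1, Dcn, Lum and Cyp17a1 at 0 at 18 cycles. Blood markers summed to 9.17 to 44.9 in the reference and 9.46 and 33.1 at 18 cycles, with Cd68 the highest and the globin genes Hba-a1, Hba-a2 and Hbb-bt at 0 throughout. None of the stroma and blood markers tested (7 and 3) passed edgeR's test, 1 had an unadjusted p under 0.05 (Dcn) and DESeq2 called 1. The call depended on 1 library (named in brackets, edgeR adjusted p 0.0103 to 0.116 without it) for Grem1 (10a, 10b, 18a, 18b), Nr5a2 (18a, 18b), Kitl (18a, 18b) and Dazl (18b).

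Genes that hold the oocyte in prophase, or end that arrest, changed in both directions. In this group of 16 genes of cAMP signalling, the kinases that inhibit CDK1 and the opposing CDC25 phosphatases 6 were higher and 3 lower (Prkar2b, Wee2 and Cdc25b), with a median of 0.19 (0.50 GC-corrected, with 5 higher and 2 lower) and a median GC of 51.8%. Cdc25a, a phosphatase that activates cyclin-dependent kinases, had normalized counts of 845 and 1418 (10 cycles), 792 and 687 (14) and 3312 and 5685 (18). Wee2, an oocyte kinase that inhibits CDK1, had normalized counts of 3164 and 3423 (10 cycles), 3211 and 2900.1 (14) and 896 and 1564 (18). Cdc25a and Pkmyt1, a kinase that inhibits CDK1, were higher in both libraries at 18 cycles and Wee2 was lower, by 2.26 ± 0.28, 1.77 ± 0.15 and -1.38 ± 0.22. Gnas, the stimulatory G protein that keeps cAMP high, had the highest count of the group and rose by 1.51, and Prkar2b, a regulatory subunit of protein kinase A, fell by 1.52. The CDK1, cyclin and Mos group of 16 genes had 5 lower (Ccnb1, Mos, Ensa, Mastl and Ccnb3) and 4 higher, with Map2k2, Cks2 and Ccnb2 among the higher ones, and a median of -0.06 (-0.06 GC-corrected, with 5 higher and 5 lower). Ccnb1, a cyclin of meiotic resumption, had normalized counts of 2101 and 1802 (10 cycles), 2352 and 2376 (14) and 373 and 586 (18), and Mos, with the highest count of the group, had normalized counts of 7927 and 8298 (10 cycles), 7826 and 8679 (14) and 1900.5 and 2859 (18). Both lay lower in each library at 18 cycles, while Map2k2, a kinase of the pathway that Mos activates, and Cks2, a CDK subunit, rose by 2.18 and 1.47. Exons of Pkmyt1 and Gnas overlap another gene, so their counts are uncertain. The median changes sign under an alternative for the CDK1 group (0.01 with 10 counts in every library, 0.09 against 14 cycles, 0.04 without 10b). Genes no longer called without the library in brackets, at an edgeR adjusted p of 0.0121 to 0.0393, were Prkar2b (10a, 14a, 18b) and Ccnb2 (18a).

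The anaphase-promoting complex, which marks securin and cyclin B for destruction, was mostly higher at a GC content below that of all genes. Of 18 genes 11 were higher and 3 lower (Anapc10, Anapc1 and Cdc27), with a median of 0.93 at a median GC of 47.3%, and 9 and 2 at a median of 0.69 after GC correction. Anapc11, its RING subunit, had normalized counts of 434 and 574 (10 cycles), 432 and 499 (14) and 2075 and 1994 (18), and Anapc10, a substrate-binding subunit, had normalized counts of 156 and 154 (10 cycles), 235 and 185 (14) and 30.7 and 18.9 (18). These moved in opposite directions without overlap (2.07 ± 0.17 and -2.79 ± 0.37). Anapc13 rose by 1.40, and so did Fzr1, the activator that keeps prophase arrest, by 1.12, with -0.06 after GC correction. The spindle checkpoint and kinetochore went the other way, with 11 of 22 genes lower and 2 higher (Spc24 and Cenpa), a median of -0.85 and a median GC of 44.4%. After GC correction 5 were lower and 3 higher (median -0.31). Bub1b, the checkpoint kinase BUBR1, had normalized counts of 9576 and 9147 (10 cycles), 10334 and 8244 (14) and 3193 and 5855 (18), lower at 18 cycles with libraries that differ from each other. Ndc80 and Zwilch, of the outer kinetochore, fell (-1.80 and -1.84), and Spc24, a partner of Ndc80 in one complex, rose by 1.56, as did the centromeric histone Cenpa by 1.51. Cohesin and its protectors had 5 of 20 genes lower (Stag2, Pds5b, Esco2, Pttg1 and Rad21) and 2 higher (Smc3 and Mau2, neither with TMM scaling), at a median of -0.58 and the low median GC of 41.7%. After GC correction the median was -0.09, and 0 were lower and 2 higher in edgeR (unadjusted p under 0.05 for 3 lower; DESeq2, without correction, called 7 lower). Stag2, a core subunit, and Pds5b, a regulator, changed by -1.60 ± 0.20 and -1.46 ± 0.26, Smc3 and Mau2 by 0.67 ± 0.16 and 0.66 ± 0.17, and Pttg1, securin, had the highest count and changed by -0.94 ± 0.23. Exons of Anapc13, Fzr1, Zwilch and Stag2 overlap another gene, so their counts are uncertain. Calls lost without 1 library, at an edgeR adjusted p of 0.0106 to 0.0742, were those of Bub1b (10a, 14a, 18a), Pttg1 (10a, 10b, 14a, 14b, 18b), Rad21 (10a, 10b, 14a, 18a, 18b), Smc3 (10a, 14a, 14b, 18b), Mau2 (10b, 14a, 14b, 18a, 18b) and Ndc80 (18a).

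Parts of the cytoskeleton that move the spindle also diverged. Of 13 alpha and beta tubulin genes 5 were lower (Tubal3, Tuba1b, Tuba1c, Tuba4a and Tubb4b) and 1 higher, a median of -0.68 at a median GC of 55.2%, and with GC correction the median was -1.23 with 7 lower. Tubb6, the higher one and the one with the highest count, had normalized counts of 3782 and 4246 (10 cycles), 4167 and 4304 (14) and 9183 and 9248 (18), and its groups are far apart. Tubal3 and Tuba1b fell (-2.45 and -2.33), and tubulin genes have close paralogs, so their counts are uncertain. Among actin nucleators and their regulators 9 of 31 were higher and 4 lower (Fmn2, Arpc3, Spire1 and Myo5a), with a median of 0.35 (0.44 GC-corrected, with 12 higher and 2 lower) and GC of 50.2%. Fmn2, the formin that moves the meiotic spindle to the cortex, had normalized counts of 1531 and 1646 (10 cycles), 1453 and 1312 (14) and 430.2 and 643 (18). It was lower in both libraries at 18 cycles and Pfn1, profilin, higher (-1.49 ± 0.21 and 2.31 ± 0.14), while Rac1, the GTPase, rose by 2.43 and Arpc3 fell by 1.12. Of 34 centrosomal Cep genes 4 were higher (11.8%) and 6 lower (17.6%), beside 16% and 14.4% of all genes. Cep126, Cep131 and Cep63 were among the higher ones, and the median of 0.07 turned to -0.01 with TMM scaling. After GC correction 8 were higher and 4 lower (median 0.19). Cep126 rose by 2.95 and Cep131 by 1.62, Cep57l1 and Cep41 fell (-1.87 and -1.33), and Cep164, with the highest count, fell by 0.79. In calcium handling, which the egg uses at fertilization, 5 of 21 genes were higher (Orai1, Calm3, Cacna1h, Atp2a2 and Camk2g) and 6 lower, median -0.30 (-0.25 GC-corrected, with 3 higher and 5 lower). Orai1, the store-operated channel, had normalized counts of 963 and 824 (10 cycles), 1088 and 1042 (14) and 5333 and 4702 (18), above the reference in both libraries at 18 cycles (2.36 ± 0.16), and Calm3 rose by 1.81, while Plcb1, a phospholipase, and Trpm7, a channel kinase, fell (-2.36 and -2.28). Exons of Tuba1b, Rac1, Cep131, Cep57l1, Orai1, Cacna1h and Plcb1 overlap another gene, so their counts are uncertain. Medians whose sign hangs on the setting are those of Cep genes (-0.05 with 10 counts in every library, -0.03 with a replicate block, -0.01 without 10a, -0.18 without 18a). With 1 library left out, the edgeR adjusted p rose to 0.0108 to 0.0663 and the call was lost for Spire1 (10a, 10b, 18a), Myo5a (10a, 10b, 14b, 18b), Cep164 (10a, 10b, 14a, 14b, 18a), Camk2g (10a, 10b, 14a, 14b, 18a) and Atp2a2 (18b).

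Proteins that store, translate and destroy maternal mRNA showed large shifts in a few members. Zar1, which binds and stores maternal mRNA, had normalized counts of 8792 and 8993 (10 cycles), 9661 and 11228 (14) and 36958 and 38712 (18). Cpeb3, of the family that binds cytoplasmic polyadenylation signals, had normalized counts of 509 and 625 (10 cycles), 414 and 379 (14) and 1636 and 3152 (18). Both were higher at 18 cycles without overlap (1.97 ± 0.15 and 2.31 ± 0.26; edgeR adjusted p = 2.91e-06 and 2.81e-05), and their transcript GC of 44.2% and 47.7% is below that of all genes. In the storage and translational control group of 25 genes 7 were higher, with Patl2, Zar1l, Dazl and Cpeb4 among the lower ones, median 0.42 (0.34 GC-corrected, with 10 higher and 3 lower), and Patl2 changed by -1.50 ± 0.26. Deadenylation and decay had 8 of 29 higher and 5 lower (Btg4, Cnot1, Upf2, Pan3 and Cnot9), median -0.37 and GC 48.1%. After GC correction the median was 0.29, and 0 were lower and 8 higher in edgeR (unadjusted p under 0.05 for 5 lower; DESeq2, without correction, called 10 lower). Btg4, the adaptor that starts clearance of maternal mRNA, had normalized counts of 9072 and 9809 (10 cycles), 11113 and 9573 (14) and 3009 and 6658 (18), all at 18 cycles below the reference (-1.04 ± 0.27). Cnot1, the scaffold of the deadenylase, fell by 1.03, and Zfp36l2, which brings mRNA to it, and Cnot11 rose by 2.89 and 2.61. The RNA exosome had 6 of 14 higher and 1, the helicase Mtrex, lower, median 0.30, and 7 higher without Mtrex called at a median of 0.88 GC-corrected. Its subunits Exosc6 and Exosc5 rose by 3.35 and 2.49, Mtrex fell by 1.22, and Mphosph6 with the highest count did not pass (-0.33 ± 0.17). Of 14 genes of adenosine methylation the writers Mettl3, Virma, Wtap and Cbll1 were lower and the reader Ythdc1 and the eraser Alkbh5 higher (median 0.04, or -0.05 with TMM scaling), and after GC correction 4 were higher and 2 lower (median 0.43). Ythdc1 had normalized counts of 448 and 857 (10 cycles), 443 and 414 (14) and 4033 and 10533 (18), far higher at 18 cycles (3.75 ± 0.36, GC 37.6%), Alkbh5 rose by 1.41, and Cbll1 and Mettl3 fell (-1.57 and -1.45). In the small RNA pathway Dicer1, with an oocyte form that makes endogenous siRNA, was the 1 lower gene of 18 (-1.43 ± 0.21), and Mael and Tarbp2 the 2 higher (1.16 ± 0.19 and 1.16 ± 0.18), median -0.42 (-0.13 GC-corrected, with 3 higher and 1 lower), while TMM scaling and DESeq2 each called 4 lower. Exons of Cpeb3, Cnot1, Zfp36l2, Mtrex, Exosc6, Exosc5, Mettl3, Cbll1 and Ythdc1 overlap another gene, so their counts are uncertain. Alternatives change the sign of the median for deadenylation and decay (0.29 GC-corrected, 0.01 without 18a) and adenosine methylation (-0.12 with 10 counts in every library, -0.03 against 10 cycles, -0.01 against 14 cycles, -0.11 without 18a). The call depended on 1 library (named in brackets, edgeR adjusted p 0.0104 to 0.0687 without it) for Btg4 (10a, 10b, 14a, 14b, 18a), Pan3 (10a, 14a, 14b, 18a), Cnot9 (10a, 14a, 14b, 18b), Wtap (10a, 14a, 14b, 18a, 18b), Cpeb4 (18a), Upf2 (18a), Cbll1 (18a) and Dazl (18b).

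Splicing factors and hnRNP proteins leaned upward, and RNA helicases stayed near the shares of all genes. Srsf2, an SR protein of splicing, had normalized counts of 811 and 902 (10 cycles), 821 and 629 (14) and 8666 and 12811 (18), at least several times the reference in both libraries at 18 cycles (3.76 ± 0.20, edgeR adjusted p = 7.39e-07). Splicing factors had 12 of 33 genes higher and 5 lower (Sf3b6, Snrpd3, Snrpc, Snrpn and Srsf3), median 0.42 (0.45 GC-corrected, with 12 higher and 2 lower) and GC 45.8%. Snrpf, a core protein of the spliceosomal particles, rose by 2.65, and Sf3b6 and Snrpd3 fell (-3.08 and -1.33). The hnRNP proteins, which coat nuclear RNA, had 7 of 20 higher and 2 lower (Hnrnpc and Hnrnpk), median 0.45 at a median GC of 43.9%, 1.04 with GC correction and 11 higher, and with TMM scaling 4 were higher. Hnrnpab and Hnrnpdl rose by 2.13 and 1.64, Hnrnpul2, with the highest count, by 0.86, and Hnrnpc and Hnrnpk fell (-1.16 and -0.89). DEAD and DEAH box helicases had 10 of 50 higher and 5 lower (Ddx58, Ddx47, Ddx3x, Dhx36 and Ddx46), median 0.10 (0.35 GC-corrected, with 9 higher and 2 lower), with Ddx59 and Ddx54 up by 1.71 and 1.68 and Ddx58, Ddx47 and Ddx3x down (-1.52, -1.32 and -1.26). Exons of Srsf2, Snrpd3, Snrpf, Hnrnpk, Hnrnpab, Hnrnpul2, Ddx59 and Ddx54 overlap another gene, so their counts are uncertain. The median changes sign under an alternative for DEAD and DEAH box helicases (-0.12 with 10 counts in every library). Genes no longer called without the library in brackets, at an edgeR adjusted p of 0.0107 to 0.114, were Snrpc (10a, 10b, 14a, 14b, 18a), Snrpn (10a, 10b, 14a, 18a, 18b), Hnrnpul2 (10a, 14a, 14b, 18b), Ddx58 (10a, 14b, 18a), Ddx46 (10a, 14a, 14b, 18a, 18b), Srsf3 (10b, 14a, 14b, 18a, 18b), Hnrnpc (18a), Hnrnpk (18a), Ddx54 (18a) and Dhx36 (18b).

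Messages for mitochondrial ribosomes and the respiratory chain had the most higher genes by number among the 63 lists, while by share the anaphase-promoting complex led with 61.1%. Mrpl12, a protein of the large mitochondrial subunit, had normalized counts of 758 and 874 (10 cycles), 875 and 923 (14) and 4349 and 4943 (18). Mrps18a, of the small subunit, had normalized counts of 274 and 258 (10 cycles), 264 and 292 (14) and 2378 and 2453 (18). In both, each library at 18 cycles held several times the normalized count of any reference library (2.44 ± 0.15 and 3.15 ± 0.15; edgeR adjusted p = 9.95e-07 and 7.39e-07). Of 78 genes of mitochondrial ribosomal proteins 42 were higher and 11 lower, against 16% and 14.4% of all genes, with a median of 0.996. Their median transcript GC of 49.8% is close to that of all genes, and after GC correction the median was 0.98 with 44 higher and 7 lower. Mrpl52 rose by 3.08 and Mrpl1 and Mrpl35 fell (-2.61 and -1.95). The respiratory chain and ATP synthase, encoded in the nucleus, had 36 of 80 genes higher and 13 lower (median 0.53, GC 50.2%, 0.50 GC-corrected, with 32 higher and 10 lower). Cox4i1, a subunit of cytochrome c oxidase, had normalized counts of 3417 and 3900 (10 cycles), 3259 and 3792 (14) and 11616 and 12792 (18). It was higher and Ndufs4, an accessory subunit of complex I, lower in both libraries at 18 cycles (1.76 ± 0.15 and -2.77 ± 0.27). Ndufb2 and Ndufc1 of complex I rose by 3.38 and 2.81, and Ndufb3 fell by 2.09. Proteins encoded by mitochondrial DNA moved against these nuclear genes. Of 13 genes 7 were tested, 0 were higher and 5 lower (mt-Cytb, mt-Nd1, mt-Co1, mt-Nd2 and mt-Nd5), with a median of -2.32 at a median GC of 37.1%. DESeq2 called 0 of the 7 higher, and 0 had an unadjusted p under 0.05 in that direction in edgeR. mt-Co1, of cytochrome c oxidase, had normalized counts of 3686 and 1374 (10 cycles), 1821 and 3274 (14) and 428 and 581 (18), and mt-Cytb fell by 2.40. All 4 reference libraries lay above both libraries at 18 cycles for mt-Co1, and mitochondrially encoded genes held 0.329%, 0.197%, 0.284% and 0.301% of gene counts in the reference and 0.0407% and 0.0665% at 18 cycles (exact two-sided permutation test, p = 0.133). GC correction left 2 of these genes lower and a median of -1.21. Exons of Mrpl12, Cox4i1, Ndufb2, mt-Nd1 and mt-Co1 overlap another gene, so their counts are uncertain. Calls lost without 1 library, at an edgeR adjusted p of 0.0174 to 0.0208, were those of mt-Nd1 (18a), mt-Co1 (18a) and mt-Nd5 (18a).

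Cytosolic protein synthesis was more evenly divided. Ribosomal proteins of the cytosol had 25 of 84 genes higher and 12 lower (median 0.23, 0.48 GC-corrected, with 23 higher and 13 lower; GC 50.9%). Rpl10a and Rplp2 rose by 2.71 and 2.24, and Rpl17 and Rps4x fell (-2.60 and -2.29). Many of these genes have processed pseudogenes with nearly the same sequence, so reads could be split. Translation initiation factors had 13 of 54 higher and 8 lower (median 0.03, or -0.06 with TMM scaling, 0.35 GC-corrected, with 20 higher and 10 lower). Eif1b, with the highest count, rose by 2.06, Eif2ak3, the kinase PERK, rose by 2.36, and Eif4a2 and Eif3e fell (-2.54 and -2.50). Among enzymes that charge tRNA 5 of 20 were higher (Farsa, Vars, Aars, Wars and Gars) and 10 lower (median -0.47, -0.29 GC-corrected, with 5 higher and 5 lower). Farsa and Vars rose by 1.66 and 1.57, Hars and Nars fell (-1.92 and -1.75), and Qars with the highest count did not pass (-0.20 ± 0.19). Heat shock proteins had 16 of 62 higher and 5 lower (Dnajc5b, Dnajb4, Hsp90aa1, Dnajc11 and Dnajc14), median 0.31 (0.51 GC-corrected, with 21 higher and 4 lower). Hspb1, a small heat shock protein, rose by 3.14, and Hspe1, the mitochondrial cochaperonin, rose by 2.54. Hsp90aa1, an inducible cytosolic chaperone, fell by 1.71, Dnajb4 fell by 1.74 and Dnajc11, with the highest count, fell by 1.38. Exons of Rpl10a, Rplp2, Eif1b, Eif2ak3, Eif4a2, Hars and Hspe1 overlap another gene, so their counts are uncertain. Medians whose sign hangs on the setting are those of translation initiation factors (-0.20 with 10 counts in every library). With 1 library left out, the edgeR adjusted p rose to 0.0167 to 0.0455 and the call was lost for Vars (18a, 18b), Hars (18a) and Dnajc5b (18a).

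Protein destruction showed opposite signs in its parts. Ubiquitin-conjugating enzymes had 10 of 34 higher and 1 lower (Ube2e3), median 0.51 (0.85 GC-corrected, with 15 higher and 1 lower) at a median GC of 45.2%. Ube2s, which extends ubiquitin chains for the anaphase-promoting complex, had normalized counts of 194 and 257 (10 cycles), 212 and 199 (14) and 896 and 973 (18), and both libraries at 18 cycles stood well above the reference (2.12 ± 0.18). Ube2r2 rose by 2.15, Ube2e3 fell by 1.18, and Ube2d3 with the highest count did not pass (-0.70 ± 0.23). The proteasome had 11 of 41 genes higher and 17 lower (median -0.23, -0.20 GC-corrected, with 10 higher and 13 lower). Psmb4 and Psmd7 rose by 1.62 and 1.62, as did Psma7 with the highest count by 0.80, and Psma2 and Psmd13 changed by -2.82 ± 0.28 and -3.58 ± 0.75, the latter on 4 counts at 18 cycles. F-box proteins, which choose the targets of ubiquitin ligases, had 14 of 68 higher and 22 lower (median -0.50, -0.35 with 1 gene at its bound, -0.19 GC-corrected, with 12 higher and 20 lower). Fbxw24, of an oocyte cluster of Fbxw genes, was lower and Fbxl22 higher at 18 cycles without overlap (-2.38 ± 0.17 and 4.04 ± 0.26). Fbxw16 and Fbxw18, of the same cluster, fell (-2.69 and -2.48), and their sequences are alike, so reads could be split, while Fbxl15 rose by 2.67. Trim proteins had 6 of 45 higher (13.3%) and 9 lower (20%), beside 16% and 14.4% of all genes. Their median was -0.53 (-0.41 with 3 genes at their bound, -0.51 GC-corrected, with 2 higher and 8 lower). Trim27 had the highest count and rose by 2.66, Trim28, a corepressor that guards imprints, rose by 2.15, and Trim23 and Trim15 fell (-2.43 and -2.26). Deubiquitinases of the Usp family had 9 of 49 higher (18.4%) and 10 lower (20.4%), also beside 16% and 14.4% of all genes. Their median was -0.29 (-0.15 with 1 gene at its bound, 0.17 GC-corrected, with 9 higher and 6 lower). Usp49 and Usp43 rose by 2.66 and 2.48, and Usp29 and Usp46 fell (-1.84 and -1.78). Exons of Ube2s, Ube2d3, Psmd13, Fbxl22, Fbxw16, Fbxl15, Usp49, Usp43, Usp29 and Usp46 overlap another gene, so their counts are uncertain. Alternatives change the sign of the median for the Usp family (0.17 GC-corrected, 0.03 without 18b). The call depended on 1 library (named in brackets, edgeR adjusted p 0.0104 to 0.0497 without it) for Ube2e3 (18a), Psmd13 (18a, 18b), Fbxl15 (18a) and Trim23 (18a, 18b).

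Chromatin genes had calls in both directions, except the histone genes of the clusters, where the 8 called were higher and 18 were not called. Of 26 such histone genes tested, from 67 in the annotation, 8 were higher and 0 lower (median 1.11, GC 53.02%, 1.22 GC-corrected, with 7 higher and 1 lower). DESeq2 called 0 of them lower, and 1 had an unadjusted p under 0.05 in that direction in edgeR. Hist3h2ba had normalized counts of 41.2 and 35.96 (10 cycles), 64.5 and 45.1 (14) and 515 and 614 (18), and Hist1h4h rose by 2.95, while Hist1h2bc, with the highest count, did not pass (0.27 ± 0.38). Both libraries at 18 cycles lay above the reference for Hist3h2ba. Most such messages carry no poly(A) tail and the genes resemble one another, so these counts are uncertain. DNA methylation genes had 2 of 17 higher (Trim28 and Mbd3) and 5 lower (Tet1, Dppa3, Dnmt3l, Dnmt3a and Dnmt1), median -0.12 (-0.35 GC-corrected, with 1 higher and 4 lower). Dnmt1, the maintenance methyltransferase, had normalized counts of 16726 and 18280.1 (10 cycles), 14763 and 15923 (14) and 7552 and 8355 (18), and Dnmt3l, the cofactor that sets maternal imprints, had normalized counts of 741 and 856 (10 cycles), 785 and 779 (14) and 217 and 250.5 (18). Each fell without overlap (-1.05 ± 0.16 and -1.77 ± 0.19), at transcript GC of 53.95% and 53.3%. Mbd3 rose by 1.40 but had -0.25 with GC correction, and Zfp57, which protects imprints and has the highest count among the Zfp genes, did not pass (0.62 ± 0.20). Histone methylation enzymes had 4 of 35 higher (Suv39h2, Nsd3, Kdm4b and Kdm6b) and 5 lower (Suv39h1, Setd2, Nsd1, Kmt2c and Kdm5c), median -0.14 (-0.15 GC-corrected, with 3 higher and 3 lower). That is 11.4% higher and 14.3% lower, beside 16% and 14.4% of all genes. The H3K9 methyltransferases Suv39h2 and Suv39h1 moved apart without overlap (1.90 ± 0.17 and -1.60 ± 0.21), and Nsd3, Setd2 and Kmt2c changed by 1.64 ± 0.18, -1.21 ± 0.20 and -0.92 ± 0.19. Polycomb genes had 5 of 27 higher (Eed, Rybp, Cbx2, Rbbp4 and Phf1) and 4 lower (Phc3, Yaf2, Pcgf1 and Aebp2), median 0.16 (0.32 GC-corrected, with 6 higher and 2 lower). Their shares of 18.5% and 14.8% lie near the 16% and 14.4% of all genes. Eed, the subunit that reads H3K27 methylation, and Rybp rose by 2.27 and 1.78, Phc3 and Yaf2 fell (-1.54 and -1.22), and Rbbp7 with the highest count did not pass (-0.47 ± 0.16). Remodellers of the CHD and SWI/SNF families had 8 of 35 higher and 4 lower (Smarcal1, Chd9, Arid5b and Chd6), and their median of 0.08 turned to -0.001 with TMM scaling (0.02 GC-corrected, with 8 higher and 6 lower). Smarca5, an ATPase of ISWI complexes, and Smarcd2 rose by 3.03 and 2.14, and Smarcal1 and Chd9 fell (-1.51 and -1.47). Exons of Dnmt3l, Suv39h2, Suv39h1, Kmt2c, Eed, Rbbp7, Chd9 and Smarca5 overlap another gene, so their counts are uncertain. The median changes sign under an alternative for histone methylation enzymes (0.04 against 14 cycles, 0.27 without 18b), Polycomb genes (-0.22 with 10 counts in every library, -0.02 against 10 cycles, -0.02 drawn down, -0.05 without 18b) and chromatin remodellers (-0.13 with 10 counts in every library). Genes no longer called without the library in brackets, at an edgeR adjusted p of 0.01003 to 0.299, were Tet1 (10a, 10b, 18a, 18b), Kdm4b (10a, 10b, 14a, 18a), Kdm6b (10a, 14a, 14b, 18b), Kdm5c (10a, 14a, 14b, 18a, 18b), Phf1 (10a, 14a), Phc3 (10a, 18b), Yaf2 (10a, 14a, 14b, 18a, 18b), Aebp2 (10a, 10b, 14a, 14b, 18a, 18b), Nsd1 (18a), Kmt2c (18a) and Chd6 (18a).

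Replication and repair genes were more often lower than higher, and less so after GC correction. Replication licensing had 3 of 25 higher (Cdt1, Gins4 and Mcm6) and 8 lower, with a median of 0.00, or -0.08 with TMM scaling (GC 48.7%), and 5 were higher and 5 lower with GC correction (median -0.06). Both libraries at 18 cycles were above the reference for Cdt1, which loads the MCM helicase, and below it for Rpa3 of the single-strand binding protein (1.83 ± 0.16 and -3.01 ± 0.31), whose transcript GC is 57.8% and 34.2%. Gins4 rose by 1.61, Cdc45 fell by 2.24, and Orc5, with the highest count, fell by 1.09. The DNA damage response had 12 of 38 lower, with Xpa and Rad52 among the higher ones (median -0.49, GC 47.02%), and 6 were higher and 8 lower with GC correction (median -0.14). Chek1, the checkpoint kinase with the highest count, fell by 1.54. Atm, the kinase that senses DNA breaks, and Ercc3, a helicase of nucleotide excision repair, fell (-1.98 and -2.11), and Xpa and Rad52 rose by 2.29 and 0.91. Zfp genes, zinc finger proteins that are mostly DNA-binding repressors, were the largest family to lean downward. Of 335 tested 92 were lower and 34 higher, with a median of -1.14 (-0.68 with 27 genes at their bound) and a median GC of 44.3%. Zfp771 rose by 3.06 and Zfp759 fell by 3.07, and many of these genes are clustered relatives whose reads could be split. After GC correction 50 were lower and 34 higher (median -0.67). Developmental factors of the Sox, Fox, Gata and Klf families leaned upward, with 15 of 51 higher and 4 lower (Foxp2, Gata3, Klf17 and Klf7), a median of 0.62 (0.28 GC-corrected, with 13 higher and 3 lower) and GC of 54.4%. Foxo1 had the highest count, with normalized counts of 2599 and 3301 (10 cycles), 2606 and 2211 (14) and 9297 and 21667 (18), and both libraries at 18 cycles lay above the reference (2.53 ± 0.27). Foxq1 and Klf2 rose by 4.23 and 3.02, and Foxp2 and Gata3 fell (-2.34 and -2.05). Of 7 Hox genes tested, from 39, 1 was higher (Hoxd9) and 0 lower (DESeq2 called 0 lower, and 0 had an unadjusted p under 0.05 in that direction in edgeR), median 1.06 (0.90 GC-corrected, without Hoxd9 called), and Hoxa7 with the highest count did not pass (-0.03 ± 0.29). Only 3 Hox genes had a mean of at least 10 normalized counts. Their median relative to the reference mean was -0.42 and 1.38 in the libraries at 18 cycles, with opposite signs. Exons of Cdc45, Orc5, Xpa, Gata3, Foxo1, Foxq1 and Hoxa7 overlap another gene, so their counts are uncertain. Medians whose sign hangs on the setting are those of replication licensing under most alternatives. Calls lost without 1 library, at an edgeR adjusted p of 0.01097 to 0.0443, were those of Rad52 (18a), Zfp771 (18a), Zfp759 (18a), Foxp2 (18a), Gata3 (18a, 18b), Klf7 (18a) and Hoxd9 (18a).

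Energy metabolism outside the respiratory chain had calls in both directions. In pyruvate oxidation and the citrate cycle 4 of 21 genes were higher (Mpc2, Mdh2, Fh1 and Dlst) and 5 lower, among them Mdh1, Dld, Pdhx and Ogdh (median 0.22). That is 19.0% higher and 23.8% lower, beside 16% and 14.4% of all genes. After GC correction 8 were higher and 5 lower (median 0.58). Mpc2, of the mitochondrial pyruvate carrier, was higher and Mdh1, the cytosolic malate dehydrogenase, lower at 18 cycles (1.90 ± 0.19 and -2.21 ± 0.23), Dld fell by 1.76, and the mitochondrial Mdh2 rose by 0.87. Glycolysis had 2 of 17 higher (Gpi1 and Aldoa, 1.43 ± 0.21 and 0.93 ± 0.16) and 1 lower (Tpi1, -2.11 ± 0.28), median -0.41, or -0.27 with 1 gene at its bound (-0.47 GC-corrected, with 1 higher and 2 lower). Cholesterol synthesis had 1 of 23 higher (Srebf1, 0.85 ± 0.18) and 6 lower (9 with TMM scaling, median -0.18, -0.33 GC-corrected, with 1 higher and 5 lower), led by Fdps (-2.72 ± 0.41) and Msmo1 (-2.31 ± 0.41), while Fdft1 with the highest count did not pass (0.29 ± 0.21). Srebf1, the regulator of lipid synthesis, had -0.08 with GC correction. Mitochondrial carriers of the Slc25 family had 10 of 36 higher, with Slc25a17, Slc25a13, Slc25a44 and Slc25a5 among the lower ones, median 0.12 (0.17 GC-corrected, with 8 higher and 4 lower), and among them Slc25a12 and Slc25a11 rose by 2.26 and 1.76, Slc25a17 and Slc25a13 fell (-2.04 and -1.86), and Slc25a48 did not pass (0.06 ± 0.16). Exons of Mdh1, Gpi1, Aldoa, Tpi1, Srebf1, Fdps, Fdft1 and Slc25a11 overlap another gene, so their counts are uncertain. Alternatives change the sign of the median for pyruvate oxidation and the citrate cycle (-0.01 with 10 counts in every library, -0.04 without 18a), glycolysis (0.15 against 14 cycles, 0.10 without 18b) and Slc25 carriers (-0.01 without 18a). With 1 library left out, the edgeR adjusted p rose to 0.0108 to 0.0441 and the call was lost for Dlst (10a, 14a, 18a), Slc25a5 (10a, 10b, 14a, 14b, 18a, 18b), Mdh2 (18a), Slc25a13 (18a), Slc25a44 (18a), Srebf1 (18b) and Slc25a11 (18b).

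MAP kinases and Rab GTPases were more often higher than lower, and the PI3K and mTOR pathway was mixed. The MAP kinase cascade had 12 of 39 genes higher and 2 lower (Mapk10 and Map3k5), a median of 0.67 and GC of 52.4%, and after GC correction a median of 0.38 with 11 and 2. Map2k2 had normalized counts of 526 and 568 (10 cycles), 527 and 606 (14) and 2581 and 2481 (18), both libraries at 18 cycles far above the reference (2.18 ± 0.15). Map3k21 rose by 2.60, Mapk10 and Map3k5 fell (-1.90 and -1.02), and Map3k6, with the highest count, rose by 0.64 but had -0.47 with GC correction. In the PI3K and mTOR pathway, which wakes dormant follicles, 3 of 24 were higher (Foxo1, Stk11 and Eif4ebp2) and 5 lower, among them Mlst8, Rictor, Pik3ca and Tsc1 (median 0.19). After GC correction 6 were higher and 2 lower (median 0.24). Stk11, the kinase LKB1, rose by 2.37, and Mlst8 and Rictor of the mTOR complexes fell (-1.52 and -1.15). Rab GTPases of membrane traffic had 17 of 51 higher and 4 lower (Rab25, Rab3b, Rab27a and Rab18), median 0.35 (0.41 GC-corrected, with 15 higher and 4 lower). Rab11a, of recycling endosomes and with the highest count, rose by 1.27 (GC 39.5%). Rab4b and Rab5a rose by 2.14 and 2.10, and Rab25 and Rab3b fell (-2.19 and -1.31). Exons of Foxo1, Stk11, Mlst8, Rab3b, Rab11a, Rab4b and Rab5a overlap another gene, so their counts are uncertain. The median changes sign under an alternative for the PI3K and mTOR pathway (-0.13 with 10 counts in every library, -0.04 without 18a). The call depended on 1 library (named in brackets, edgeR adjusted p 0.0109 to 0.136 without it) for Mapk10 (10a, 10b, 14a, 14b, 18a), Map3k6 (10a, 10b, 14a, 14b, 18a), Mlst8 (10a, 14a, 14b, 18a, 18b), Pik3ca (10a, 10b, 14b, 18a, 18b), Rab25 (10a, 10b, 14a, 18a), Rab18 (14a, 18a, 18b), Map3k5 (18a), Eif4ebp2 (18a), Tsc1 (18a, 18b), Rab3b (18a) and Rab27a (18a).

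Families used mainly outside the oocyte were mostly tested on low counts. Collagens and laminins had 6 of 35 genes lower and 1 higher (Lamc1), a median of -1.004 (-0.77 with 5 genes at their bound, -1.20 GC-corrected, with 1 higher and 9 lower) and GC of 52.7%. Lamb1, a laminin chain with the highest count of the list, had normalized counts of 16414 and 16222 (10 cycles), 14936 and 12879.5 (14) and 5985 and 8979 (18). Lamb1 was lower and Lamc1, which joins it in the same trimers, higher in both libraries at 18 cycles (-1.02 ± 0.20 and 2.51 ± 0.25), and Lama4 and Lama2 fell (-1.83 and -1.41). Olfactory receptors had 5 of 57 tested genes lower (Olfr976, Olfr288, Olfr1104, Olfr667 and Olfr878) and 0 higher (DESeq2 called 0 higher, and 0 had an unadjusted p under 0.05 in that direction in edgeR), with 25 at 0 counts at 18 cycles, a median of -0.71 with those at their bound, 3 lower after GC correction and a median GC of 39.8%. Olfr976, with the highest count, was lower in both libraries at 18 cycles (-1.95 ± 0.19), and Olfr288 changed by -1.52 ± 0.24. Exons of Lama2 and Olfr288 overlap another gene, so their counts are uncertain. Genes no longer called without the library in brackets, at an edgeR adjusted p of 0.0105 to 0.0526, were Olfr1104 (10a, 14a, 14b, 18a, 18b), Olfr667 (10b, 14a, 18a, 18b), Lamb1 (18a) and Olfr878 (18a).

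Classes of gene set by the annotation differed as well. Protein-coding genes had 2540 of 13936 higher and 2139 lower, while long intergenic RNAs had 29 of 1052 higher and 194 lower, with medians of -0.18 and -1.73 (0.00 and -0.79 with genes without counts at 18 cycles at their bound, 802 and 257 of them). RNAs that start from a shared promoter opposite a coding gene had 14 of 75 higher and 2 lower, at a median of 0.73, and antisense RNAs 108 of 935 higher and 64 lower. The deposited files' names mark counting as unstranded, and if so an antisense RNA and its partner cannot be told apart. Unprocessed pseudogenes had 11 of 59 lower, processed pseudogenes 14 of 509 higher and 28 lower, and both kinds share sequence with their parent genes. Genes with 1 exon had 323 of 1936 higher and 127 lower, and those with over 15 exons had 310 of 3048 higher and 566 lower. On the X chromosome, which carries Bmp15, 30 of 561 genes were higher and 105 lower (median -0.96, GC 45.5%), and on chromosome 8, at a median GC of 50.8%, 204 of 966 were higher and 102 lower (median 0.04). By abundance, 620 of 1615 genes with a mean above 1000 normalized counts were higher and 368 lower, and of 4101 genes with a mean of at most 10 only 10 were higher and 14 lower.

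Transcript GC content moved with the change across the whole range of genes. Genes were sorted by transcript GC into 5 bins of equal size, bin 1 the lowest. From bin 1 to bin 5, 222, 326, 461, 674 and 1125 genes of about 3500 in each were higher, and 825, 687, 522, 371 and 122 were lower. Median log2 fold changes of the bins were -1.09, -0.76, -0.43, -0.07 and 0.81, and -0.56, -0.39, -0.14, 0.00 and 0.81 with genes without counts at 18 cycles at their bound. In bin 1, among genes with a mean of at least 10 normalized counts, the libraries at 18 cycles had medians of -0.74 and -0.75 relative to the reference mean, and the reference libraries lay between -0.05 and 0.07. Bin 5 had medians of 1.02 and 0.84 at 18 cycles and of -0.03 to 0.02 in the reference, so the 2 groups stood apart at both ends. Across 17513 genes, which are not independent replicates and share the same 6 libraries, the Spearman correlation of log2 fold change with transcript GC was 0.38. It was 0.39 with GC of the coding sequence, 0.27 with that of the 3′ UTR, 0.03 with transcript length and -0.01 with the number of exons. Of the called genes named in this text, 83 of 306 were no longer called after GC correction: Aebp2, Aldoa, Btg4, Cacna1h, Calm3, Camk2g, Cbll1, Cbx2, Cdc27, Cep131, Cnot1, Cnot9, Cpeb4, Dazl, Ddx3x, Ddx46, Ddx54, Ddx58, Dhx36, Dnajc5b, Esco2, Fbxl15, Foxp2, Fzr1, Gja4, Grem1, Hnrnpc, Hnrnpk, Hoxd9, Kdm4b, Kdm6b, Kitl, Klf7, Kmt2c, Map3k6, Mapk10, Mastl, Mau2, Mbd3, Mtrex, Myo5a, Nhs, Nr5a2, Nrtn, Nsd1, Olfr1104, Olfr667, Orc5, Pan3, Pds5b, Phc3, Phf1, Pik3ca, Prkar2b, Psma7, Pttg1, Rab18, Rad21, Rictor, Setd2, Slc25a5, Snrpc, Snrpn, Spire1, Srebf1, Srsf3, Stag2, Tbpl2, Tet1, Trim23, Trim28, Tubb6, Ube2e3, Uchl1, Upf2, Vars, Wtap, Yaf2, Zbed3, Zfp771, mt-Nd1, mt-Nd2 and mt-Nd5. A lost call does not give the size of the change. The log2 fold change stayed near its size in some, as for Nhs (-4.55 to -4.04) and Grem1 (-4.26 to -3.76). It shrank in others, as for Nrtn (3.97 to 0.86) and Psma7 (0.80 to 0.03).

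**Figure D2:**
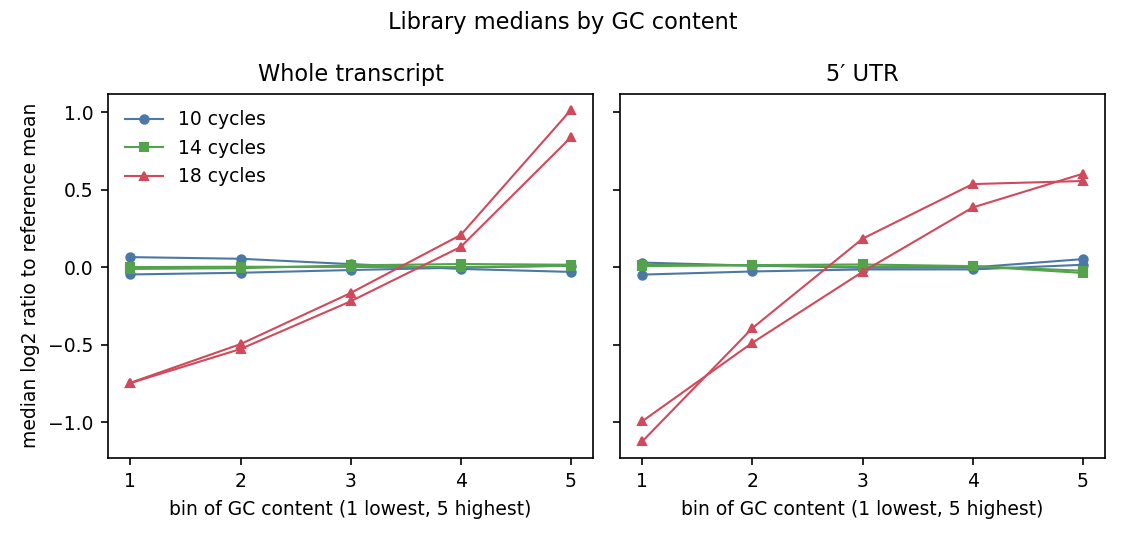
Median log2 ratio of each of the 6 libraries to the mean of the 4 reference libraries, by bin of transcript GC (left) and of 5′ UTR GC (right), bin 1 the lowest, over genes with a mean of at least 10 normalized counts; 1 line for each library. Both lines at 18 cycles climb from -0.74 and -0.75 to 1.02 and 0.84 over the transcript GC bins, and the reference lines stay between -0.05 and 0.07.

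**Figure D3:**
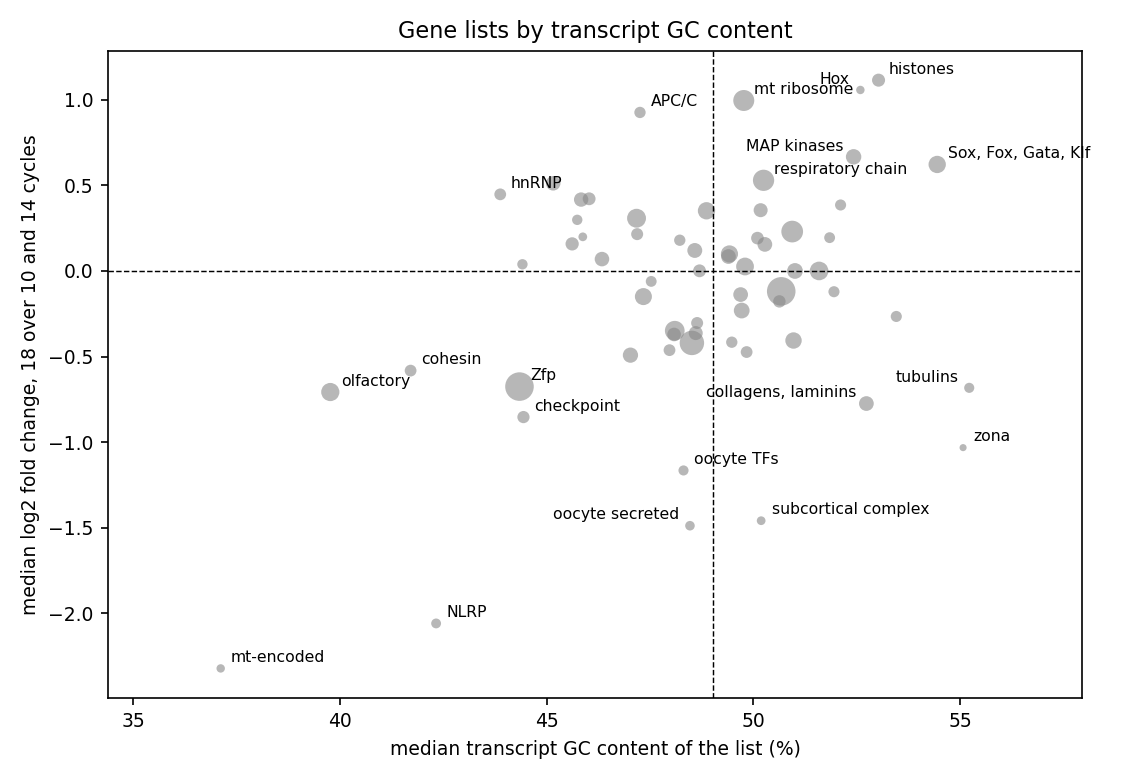
Median log2 fold change of each of 63 gene lists (vertical axis) against the median transcript GC content of its tested genes in percent (horizontal axis), with genes without counts at 18 cycles at their bound; 10 of the lists appear only here; larger points hold more genes, up to a fixed size from 150 genes on, and dashed lines give all genes tested. The NLRP, mitochondrially encoded and oocyte secreted lists lie at the bottom, and the mitochondrial ribosomal, histone, Hox and anaphase-promoting lists at the top. The Hox list has 7 tested genes. Over the 3 with a mean of at least 10 normalized counts, the libraries at 18 cycles differed in sign.

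GC content of the 5′ UTR was related to the change about as closely as that of the whole transcript. The Spearman correlation with 5′ UTR GC was 0.42 over 12890 genes, and over the 12752 genes with all 3 regions annotated it was 0.42 against 0.36 for transcript GC. With GC averaged over all transcripts of a gene it was 0.41, no difference between these was tested, and 5′ UTR GC and transcript GC were themselves related at only 0.22. Within the 5 bins of transcript GC, from low to high, the correlation with 5′ UTR GC was 0.54, 0.43, 0.38, 0.35 and 0.20, a description chosen after seeing the data. From bin 1 to bin 5 of 5′ UTR GC, 134, 239, 449, 720 and 797 genes of 2578 in each were higher and 732, 577, 319, 200 and 146 lower, with medians of -1.34, -0.68, -0.07, 0.40 and 0.55, while the median transcript GC of these bins ran from 46.1% to 50.8%. Oocyte groups were spread over this measure. Median 5′ UTR GC was 46.0% for the NLRP genes, 52.1% for the subcortical maternal complex and 56.3% for the oocyte secreted factors, against 63.4% over all genes tested, and 68.7% for mRNA storage, 69.2% for the small RNA pathway and 68.6% for prophase arrest. The highest was 73.6% for calcium handling, whose median fold change is negative, then 72.1% for the MAP kinase cascade, while histone and Hox genes, with positive medians, had 41.0% and 53.4%. The Hox median rests on few genes with low counts, and the libraries at 18 cycles differed in sign there.

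Promoter sequence was set beside these groups where the RefSeq table of 300-base windows (250 before and 50 after the start, GRCm38.p6) held at least 80% of a group, also chosen after seeing the data. CG dinucleotides were counted on the strand shown, which counts them on both. The window held a median of 2.5 CG for 10 of 12 NLRP genes, 3.5 for the 8 genes of the subcortical maternal complex and 21 for 67 of 78 mitochondrial ribosomal protein genes, against 7 over all 32851 windows of the table. Windows with at most 3 CG made up 60%, 50% and 0% of these groups and 31.4% of the table. The fallen NLRP gene and the risen ribosomal gene with the highest counts whose window holds the annotated start are shown beside these medians, Nlrp5 (chr7:23385639-23385938, plus strand) and Mrpl12 (chr11:120484387-120484686, plus strand), with each CG in capitals.
Nlrp5: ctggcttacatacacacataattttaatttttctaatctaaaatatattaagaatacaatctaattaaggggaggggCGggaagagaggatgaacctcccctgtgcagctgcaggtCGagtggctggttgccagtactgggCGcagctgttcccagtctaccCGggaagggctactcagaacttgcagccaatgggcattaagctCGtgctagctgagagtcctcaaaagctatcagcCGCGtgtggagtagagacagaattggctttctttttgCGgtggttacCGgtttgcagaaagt
Mrpl12: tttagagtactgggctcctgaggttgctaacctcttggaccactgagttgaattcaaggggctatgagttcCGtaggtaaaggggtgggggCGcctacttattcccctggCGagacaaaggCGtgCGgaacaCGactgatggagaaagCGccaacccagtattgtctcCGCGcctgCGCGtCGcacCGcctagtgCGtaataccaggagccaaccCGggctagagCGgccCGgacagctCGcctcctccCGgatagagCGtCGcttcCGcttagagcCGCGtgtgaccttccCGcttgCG
Nlrp5 has 9 CG, the most of the 10 NLRP windows and above their median of 2.5, so it is not typical of its family. Mrpl12 has 26, and 45.8% and 16.9% of the table's windows hold at least as many as these 2 genes.

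Other libraries of the series, made from 1/2, 1/4 and 1/8 of an oocyte and by the methods amplified for 18 cycles, were set beside these for the same groups. By the methods these 6 libraries share 2 other oocytes, whose lysates were diluted. Their values are set against the same 4 reference libraries, so the comparisons share them and no difference between them was tested. The median of the NLRP genes relative to the reference was -2.11 and -1.99 in whole oocytes at 18 cycles, -2.24 and -1.66 in 1/2, -1.21 and -1.44 in 1/4, and -0.75 and -0.22 in 1/8. Oocyte secreted factors had -1.54 and -1.86, then -1.65 and -1.40, -0.64 and -0.64, and -0.03 and -0.19. In both groups 1/8 lay nearest to the reference. Mitochondrial ribosomal proteins had 0.97 and 0.95, then 1.44 and 0.88, 0.58 and 0.60, and 0.49 and 0.56, and bin 5 of transcript GC 1.02 and 0.84, then 0.71 and 0.55, 0.69 and 0.62, and 0.23 and -0.30. Genes received 4024670 and 3598549 counts in 1/2, 4027907 and 5049518 in 1/4, 11404262 and 1702062 in 1/8.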

How the data were processed

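Poly(A) RNA of single GV oocytes was sequenced after Nextera library preparation. Per the labels the authors trimmed reads with cutadapt 2.5, checked them with FastQC 0.11.8, mapped them to GRCm38 with STAR 2.7.2a and SAMtools 1.9 and counted genes with HTSeq 0.9.1, and the deposited files hold raw counts for each gene and ERCC molecule. Here 6 libraries were compared, 2 at 18 cycles against 4 at 10 and 14 cycles as one reference, with 1706478 to 13806199 counts on genes. Members and gene lists were chosen with earlier results of these data known. Genes that reached 5 counts in 2 or more libraries were tested with edgeR 4.0.16 (R 4.3.3) by its quasi-likelihood test with median-ratio size factors over genes, at an adjusted p under 0.01, checked on simulated data. Transcript GC content is that of the longest transcript in GENCODE M21. GC correction entered a lowess curve (span 0.5) of log2 ratio on GC as an offset for each library. Lists are described by counts and medians without a test. Alternatives were DESeq2 1.42.0, other filters, TMM and ERCC scaling, a block on replicate number, each cycle number alone as reference, drawn-down counts, GC and length corrections, and leaving out each library. Tables were made in Python 3.11.15. The names of the deposited files mark counting as unstranded, which could not be checked, and reads assigned to no gene were left out. A few genes are not reported here.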

Additional observations from a re-analysis of the deposited data

Results flagged for a closer look

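In the 4 reference libraries 1 value can lie far from the other 3, measured as its gap to the nearest divided by the whole range. The number of genes with at least 1 count stood out in this way (0.910), through the 21146 genes of replicate 2 at 10 cycles. The normalized counts of 19 genes also did: Aldoa 0.909, Cnot9 0.917, Cyp17a1 0.850, Ddx46 0.946, Dicer1 0.878, Exosc5 0.904, Fbxl15 0.871, Fbxw16 0.865, Mcm6 0.854, Ndufb3 0.956, Psma2 0.831, Psmb4 0.883, Rgsl1 0.885, Rplp2 0.920, Snrpd3 0.851, Tmem158 0.917, Tsc1 0.886, Vars 0.842, Ythdc1 0.922. These are 20 of 331 values examined, and chance gives about 1 in 20. Each group of 4 joins 2 cycle numbers.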

How the results depend on the processing

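With ERCC molecules as the basis of scaling 9447 genes were higher and 4 lower, and values below are relative to its shift. The Spearman correlation of log2 fold change with transcript GC was 0.28 with no filter on counts and 0.044, 0.043 and 0.050 with GC correction, GC correction in a fit blocked on replicate number, and GC and length correction. The median of the highest GC bin was 0.73 with TMM, 0.94 with counts drawn down to the smallest library, and -0.075, -0.10 and -0.041 with the 3 corrections, which remove GC by construction. The lowest had -0.56 with at least 10 counts in every library, -1.17 with TMM, -0.77 drawn down, and -0.33, -0.35 and -0.31 with the corrections. Leaving out each of the 6 libraries in turn gave 1409 to 2232 genes lower (fewest without replicate 1 at 18 cycles), 2270 to 2640 higher, 0.59 to 0.89 for the highest bin, -1.16 to -1.04 for the lowest and 0.30 to 0.39 for the correlation. Where this leaves 1 library at 18 cycles, edgeR assumes that it varies like the other group. With the 3 corrections, in the order given, these genes changed sign: Fzr1 -0.059, -0.066, -0.10; Gja4 -0.060, -0.059, -0.027; Kdm6b -0.28, -0.31, -0.28; Map3k6 -0.47, -0.47, -0.53; Mbd3 -0.25, -0.25, -0.21; Phf1 -0.25, -0.25, -0.29; Srebf1 -0.078, -0.081, -0.14. Over all alternatives the genes named stayed on their side of the threshold in 5458 comparisons, no longer passed in 603 and newly passed in 19. In the 5458, called genes also kept direction, while a gene not called counts as kept even if its sign changed. The 5458 include 324 with ERCC scaling, where the call was carried over from the main fit and not tested. Only the direction relative to the shift was compared for these. Apart from the 4 genes lower with ERCC scaling, genes lower with median-ratio size factors were not called lower with it. Of these genes 455 were called higher with ERCC scaling. Medians of 19 of 63 lists changed sign under at least 1 alternative, none of them above 0.57 in size. They moved by less than the spread between libraries in 810 comparisons and by more in 384. Replicate numbers did not pair libraries: residuals of equal numbers correlated at -0.06, 0.14 and -0.14 over 9073 genes (10 with 14, 10 with 18 and 14 with 18 cycles). The causes of these differences were not tested.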

Other observations

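Each side of the comparison rests on few oocytes, 2 at 18 cycles and 4 in the reference. Counts with median-ratio scaling are shares of a library and do not give the amount of RNA in an oocyte. ERCC molecules, added to each lysate, held a smaller share at 18 cycles, and the amount of RNA was not tested.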
